A study of Mus musculus with 5 samples.

Results

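Fibroblasts holding transcripts of Hp, the gene of haptoglobin, were examined in 4 libraries of sorted sarcoma cells. Stroma was defined by counts of unique molecular identifiers (UMIs, 1 for each captured transcript): at least 500 detected genes, at most 10% mitochondrial UMIs, fewer than 5 Rgs5 UMIs per 10000, and a sum of at least 4 UMIs over Ddah1, Wisp1, C1qtnf7 and Fbn2. Members were the stroma cells with at least 3 Hp UMIs. They numbered 355 of 2339 stroma cells, among 29412 sarcoma cells kept and 37519 cells kept in all libraries. The counts of Hp, Rgs5 and the 4 stroma genes chose the members, so these 6 genes are described and were not tested.

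Haptoglobin is a secreted plasma protein that binds free haemoglobin, which limits its oxidative action and the iron it offers to microbes. The liver makes most of it, and its output rises in the acute-phase response, when interleukin-1 and interleukin-6 act through NF-kB, C/EBP and STAT3 transcription factors. Serum amyloid A proteins and lipocalin-2, which captures the iron carriers of bacteria, belong to the same response. Fibroblasts can make these proteins in inflamed tissue, and tumour fibroblasts rich in chemokines, cytokines and complement are often called inflammatory fibroblasts.

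The 4 sarcoma libraries came from C57BL/6J mice of the genotype Hic1CreERT2/CreERT2;Rosa26LSLtdTomato/LSLtdTomato;Smarcb1FL/FL, taken at endpoint from the shoulder (sarcoma 1), the head (sarcoma 2), the head/ear (sarcoma 3) and the hip (sarcoma 4). The remaining library held Hic1-lineage cells of quiescent hindlimb muscle from the genotype Hic1CreERT2/CreERT2;Rosa26LSLtdTomato/+, with no floxed Smarcb1. Per the labels, tamoxifen was given at 8 weeks of age, as 2.5 mg in 100 µL of sunflower oil on each of 5 days, followed by a washout of 10 days. Cre is expressed from the Hic1 locus, both Hic1 copies carry it, and Cre switches on the red reporter tdTomato and can delete Smarcb1, so every library lacks an unmodified Hic1 allele and holds only cells that the sort passed. Each body site has 1 library, and the labels do not state whether the tumours grew in separate animals. The p-values therefore measure only the spread among these libraries, which could be technical.

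The sarcoma libraries held 7296 to 8812 barcodes and 151903246 to 213271163 UMIs. At most 22 barcodes were found in both of any 2 libraries, and 1 member's barcode occurred in another library, where it was not a member. Libraries stood apart in 2 ways. Sarcoma 3 gave 254 of the 355 members (71.5%), and 25.6% of its kept cells were stroma, against 2.89%, 2.16% and 2.49% in sarcomas 1, 2 and 4. Sarcoma 4 had 170 stroma cells by the rule and 0 members. Its 168 stroma cells without Hp held Smarcb1, Cdkn2a and Dcn at 3.85, 123 and 170 counts per 1000000 UMIs (CPM, the unit of all levels below), against 0.355, 114 and 28.2 in its cells outside the rule. Of the 4 stroma genes, Fbn2 was highest in them, at 98.7 CPM, followed by Ddah1 at 44.2. The label fibroblast therefore does not hold for the cells that met the rule in sarcoma 4, and all tests below use sarcomas 1, 2 and 3.

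The label fibroblast was checked against genes that the rule did not use. In members, the fibroblast collagen gene Col3a1 was counted at 18185, 20653 and 20575 CPM in sarcomas 1, 2 and 3, against 554, 1551 and 2235 in the cells of the same libraries outside the stroma rule. Dcn, which encodes the small proteoglycan decorin, lay at 4136, 4121 and 7680 in members and at 1405, 4040 and 1056 outside, so it does not separate the classes in sarcoma 2. The fibroblast receptor gene Pdgfra lay at 180, 311 and 493 in members and 202, 217 and 335 outside, and the reporter tdTomato at 1144, 683 and 2007 against 705, 351 and 1266. Smarcb1, the floxed subunit gene of the SWI/SNF chromatin remodelling complex, was counted at 39.4, 66.3 and 62.9 CPM in members and at 1.61, 1.75 and 6.72 outside the rule. The labels do not say which exons are floxed, and a 3′ tag outside them would not report the deletion. Cdkn2a, the p16 and p19 gene that is high in most cells of these libraries, lay at 61.7, 13.2 and 10.6 in members and at 196, 77.2 and 157 outside. The 12 mural genes, among them Rgs5, which the rule limits, summed to 326, 82.4 and 193 CPM in members of sarcomas 1, 2 and 3, to 185, 181 and 214 in stroma with 0 Hp UMIs and to 208, 144 and 508 outside the rule. Higd1b and Pln were at 0 in members, and in sarcoma 1 the mural sum was highest in members, where Ndufa4l2 gave 228. The part of mural cells in the results below was not tested. The 9 tenocyte genes summed to 461, 213 and 2178 CPM in members, 1327, 1016 and 5211 in stroma with 0 Hp UMIs and 1370, 234 and 577 outside the rule. In sarcoma 3 members thus lay between these classes, and the part of tenocyte-like cells was not tested. The 12 endothelial genes summed to 28.9, 43.9 and 24.6 in members, 262, 39.2 and 46.4 in stroma with 0 Hp UMIs and 266, 325 and 54.0 outside the rule. Summed over 9 glial, 10 muscle and 6 red-cell genes, members held at most 18.9, 6.01 and 0.839 CPM, and Sox10, Myod1 and Pax7 were at 0. Of 11 neutrophil and 15 macrophage genes, the sums were 20 to 38.2 and 24.9 to 58.1 in members, and 4.29 to 23.2 and 50.5 to 121 in stroma without Hp, with Csf3r and Itgam at 0 in members. The pan-leukocyte gene Ptprc lay at 5.25, 1.46 and 0 CPM in members of sarcomas 1, 2 and 3.

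Stroma with 0 Hp UMIs, called Hp-negative stroma below, numbered 147, 81 and 1253 cells in sarcomas 1, 2 and 3. In it Smarcb1 lay at 25.5, 49.6 and 54.9 CPM and Cdkn2a at 93.6, 17.5 and 20.1. Neither gene's difference from members was called (adjusted p = 0.324 and 0.229 by edgeR over all genes). Cells with a Smarcb1 UMI made up 56.7%, 77.5% and 81.1% of members and 39.5%, 54.3% and 62.6% of Hp-negative stroma, with median UMIs per cell of 22456.5, 27711 and 26576 against 23433, 26613 and 20393. How many sarcoma cells each side holds was not tested. Results on genes high outside the stroma rule are given below with both sides limited to cells with a Smarcb1 UMI, and with both sides limited to cells without Cdkn2a.

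Members took up 14.0% of stroma in sarcoma 1 (95% exact binomial interval 9.62 to 19.3), 40.1% in sarcoma 2 (32.8 to 47.7) and 14.3% in sarcoma 3 (12.7 to 16.0). In sarcoma 4 they were 0 of 170 cells, for which a floor of 3 counts gives 1.76% and the exact binomial interval ends at 2.15%, and the muscle library had 0 among the 173 cells that met the stroma rule. Intervals and floors cover counting error only, and no test sets 1 library per site against another. Exactly 3 Hp UMIs, the lowest count inside the limit, were found in 5, 6 and 27 members of sarcomas 1, 2 and 3, and exactly 2, the highest outside, in 12, 10 and 61 stroma cells. The median member held 7.5, 19 and 14 Hp UMIs and the highest 131, 106 and 983. Thinned to 5000 UMIs each, 14.1%, 39.2% and 15.4% of stroma cells held at least 1 Hp UMI, with sarcoma 2 again the highest. This limit is lower than the 3 Hp UMIs of members. Of the members, 21 of 30, 62 of 71 and 214 of 254 kept an Hp UMI, and the rest of these cells had 1 to 2 Hp UMIs before thinning. Among cells outside the stroma rule the thinned shares were 0.698%, 0.942% and 2.60% (0.997%, 2.02% and 5.84% unthinned, at median depths of 24020, 24796 and 19142 UMIs).

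**Figure D1:**
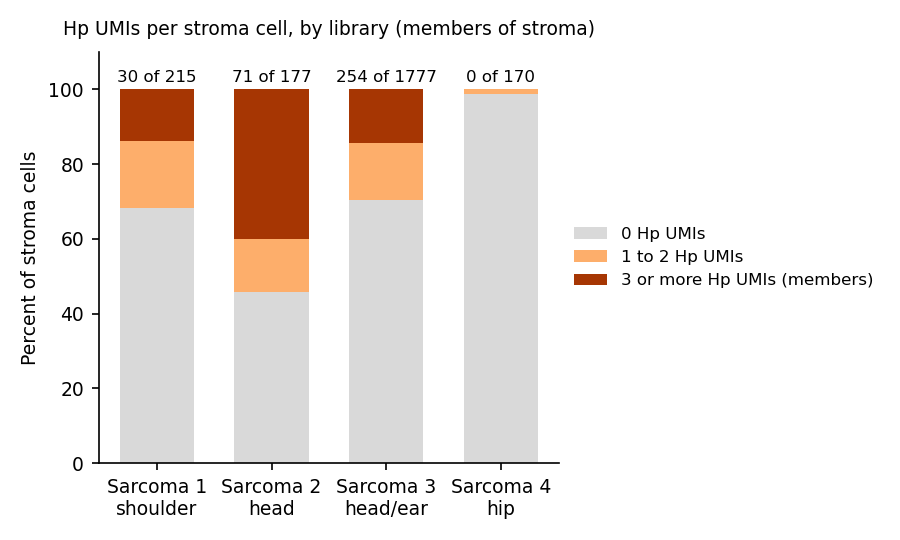
Percent of stroma cells (vertical axis) with 0, 1 to 2, or 3 or more Hp UMIs in each sarcoma library, with the number of members among stroma above each bar. The share of members was highest in sarcoma 2, at 40.1%, near 14% in sarcomas 1 and 3, and 0 in sarcoma 4. The label fibroblast does not hold for the stroma cells of sarcoma 4.

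Hp (ENSMUSG00000031722, minus strand of chromosome 8, 109575128 to 109579172, build mm10) was counted at 700, 889 and 1792 CPM over the members of sarcomas 1, 2 and 3. A single cell gave 24.6% of the Hp UMIs in sarcoma 1, 5.81% in sarcoma 2 and 7.67% in sarcoma 3. Of the stroma genes, Ddah1, which encodes an enzyme that degrades inhibitors of nitric oxide synthase, lay at 232, 384 and 307 in members and 228, 352 and 242 in Hp-negative stroma. Wisp1, a matricellular gene of the CCN family, lay at 148, 128 and 282 against 107, 137 and 237. Hp was also counted outside the stroma rule, in 39, 33, 72 and 14 cells of sarcomas 1 to 4 with at least 3 Hp UMIs. Of those, 18, 24, 46 and 0 exceeded the limit on Rgs5, a gene of pericytes, the contractile cells around small vessels. Over all cells above that Rgs5 limit, Hp lay at 103, 304 and 949 CPM in sarcomas 1, 2 and 3 and at 0 in sarcoma 4, so Hp is not confined to members in the 3 libraries that hold them.

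The comparison asked which genes differ between members and Hp-negative stroma of the same tumour. Members held more mRNA of the acute-phase genes Saa3, Lcn2 and Cp and of the chemokine genes Cxcl5, Cxcl12, Ccl11 and Cxcl14. They also held more of Mmp3, Mmp13, Mt1 and Mt2. Lower in members were the tendon matrix gene Thbs4, the imprinted gene Mest and the cyclin gene Ccnd1. Ccnd1 was highest in cells outside the stroma rule. Its difference was not called with both sides limited to cells with a Smarcb1 UMI, or to cells without Cdkn2a. edgeR, with library as a block, called 63 of the 10706 tested genes with the adjusted p held to 0.05 (0.588%), 47 higher (0.439%) and 16 lower (0.149%) in members, with 1114 at an unadjusted p under 0.05. Of the 63, 62 lay on the same side in all 3 libraries. Of all genes tested, 11.3% lay higher and 28.7% lower in members in all 3. A fit blocked by library favours such genes, so this is not separate support for the calls. DESeq2 called 214 (2.0%), of which 143 were higher (1.34%) and 71 lower (0.663%). limma-voom called 148 (1.38%), of which 113 were higher (1.06%) and 35 lower (0.327%), and both sets held all 63. The fit left 2 residual degrees of freedom: without sarcoma 1 it called 18 genes (14 of the 63), without sarcoma 2 it called 8 (6 of the 63) and without sarcoma 3 it called 105 (33 of the 63). Only Saa3, Cxcl5 and Mmp3 were called whichever library was left out, and all of the 63 that could be tested kept their direction.

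**Figure D2:**
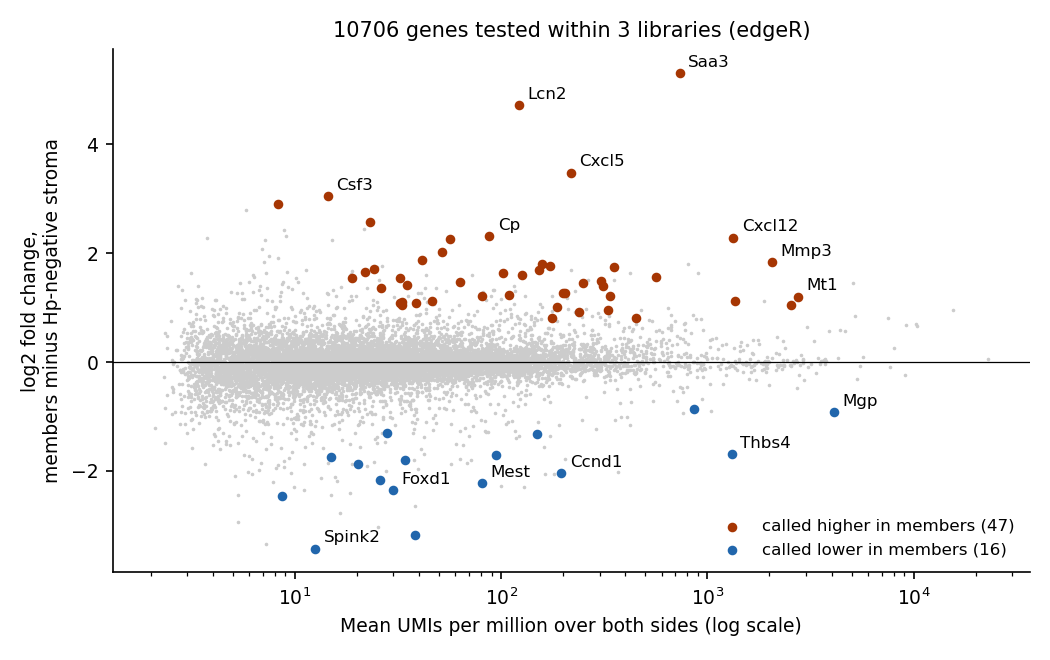
Log2 fold change of members minus Hp-negative stroma (vertical axis) against the mean level over both sides in CPM (log scale) for the 10706 genes tested, 1 point each, with the 47 called higher in brown and the 16 called lower in blue. Saa3, at 5.31, and Lcn2, at 4.71, stand above the other called genes.

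The 2 genes with the largest rises belong to the acute-phase response. These are Saa3 and Lcn2, while the chemokine gene Cxcl12 and the protease gene Mmp3 were called higher and found in most members. The bases before the transcription starts of Saa3, Lcn2, Cxcl12 and Mmp3 are shown in that order. They are the 250 bases upstream of the RefSeq start on build GRCm38.p6, read 5′ to 3′ on the gene's strand, at chr7:46715677-46715926 (minus), chr2:32387740-32387989 (minus), chr6:117168285-117168534 (plus) and chr9:7445572-7445821 (plus). Capitals mark the letters TTGCNNAA, a C/EBP sequence, on either strand, which begin 99 bases before the start in Saa3, 216 in Lcn2 and 148 in Mmp3.
Saa3: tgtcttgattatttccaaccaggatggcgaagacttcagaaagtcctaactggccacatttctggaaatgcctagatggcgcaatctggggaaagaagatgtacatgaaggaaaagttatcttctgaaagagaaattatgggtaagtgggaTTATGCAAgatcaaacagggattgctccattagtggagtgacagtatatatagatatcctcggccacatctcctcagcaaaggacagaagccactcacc
Lcn2: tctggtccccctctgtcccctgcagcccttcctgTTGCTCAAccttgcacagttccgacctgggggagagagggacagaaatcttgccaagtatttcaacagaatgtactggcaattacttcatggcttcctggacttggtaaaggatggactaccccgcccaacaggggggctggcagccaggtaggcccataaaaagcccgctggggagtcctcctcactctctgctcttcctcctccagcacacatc
Cxcl12: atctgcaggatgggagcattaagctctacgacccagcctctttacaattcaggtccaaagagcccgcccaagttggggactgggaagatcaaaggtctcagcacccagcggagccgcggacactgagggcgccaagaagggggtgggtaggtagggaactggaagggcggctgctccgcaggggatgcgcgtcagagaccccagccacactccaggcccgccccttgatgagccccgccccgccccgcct
Mmp3: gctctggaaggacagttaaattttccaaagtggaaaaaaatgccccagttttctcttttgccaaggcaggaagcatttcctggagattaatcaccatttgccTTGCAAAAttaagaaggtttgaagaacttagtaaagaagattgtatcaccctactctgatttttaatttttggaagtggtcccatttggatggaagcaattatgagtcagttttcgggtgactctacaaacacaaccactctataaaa

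Windows from 250 bases before to 50 after the start were found in the RefSeq table for 31 of the 47 genes called higher, and those letters occurred in 10 of them (32.3%), against 10.1% of the tested genes and 12.2% of all genes in the table. The 10 were Ackr3, Cp, Il1r1, Kng2, Lcn2, Mmp3, Mt2, Ptx3, Rasl11a and Saa3. TTCNNNGAA, a STAT sequence, occurred in 12.9% of the 31, against 8.15% of tested genes and 9.55% of all. GGGANNNNCC, an NF-kB sequence, occurred in 38.7%, against 30.9% and 22.9%. Both strands were searched, and in these genes 0 matches of one motif shared bases with a match of another. Matches of letters are a description of these windows and do not show binding.

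Saa3, which encodes an acute-phase serum amyloid A made outside the liver, was counted at 417, 369 and 3495 CPM in members of sarcomas 1, 2 and 3 and at 3.79, 16.1 and 118 in Hp-negative stroma. Members lay above Hp-negative stroma in each library and the groups did not overlap (log2 fold change 5.31 ± 0.39, SE, edgeR adjusted p = 0.0156). In sarcoma 1, however, a single member held 305 of the 318 Saa3 UMIs (95.9%), and without it the level was 17.6. That is below the 118 of Hp-negative stroma in sarcoma 3, so the lack of overlap rests on this 1 cell. In sarcomas 2 and 3 the highest cell gave 19.6% and 9.44%, and Saa3 was found in 23.9% and 53.1% of members against 3.70% and 12.5% of Hp-negative stroma. Without sarcoma 1, and so without that cell, Saa3 was still called (edgeR adjusted p = 0.00289). The fits without sarcoma 2 (0.0381) or sarcoma 3 (0.0279) keep the cell.

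Lcn2, the lipocalin-2 gene, was counted at 31.5, 324 and 348 CPM in members and at 0.505, 2.83 and 26.8 in Hp-negative stroma. The groups did not overlap (log2 fold change 4.71 ± 0.53, SE, edgeR adjusted p = 0.0274). One member again gave most of the UMIs in sarcoma 1, 19 of 24. Without it the level was 6.75, below the 26.8 of Hp-negative stroma in sarcoma 3, so the lack of overlap rests on that cell. Without sarcoma 1 the call of Lcn2 was lost (edgeR adjusted p = 0.0696). In sarcomas 2 and 3 Lcn2 was found in 57.7% and 54.3% of members against 6.17% and 12.2% of Hp-negative stroma. Cp, which encodes the copper-carrying ferroxidase ceruloplasmin, lay at 39.4, 238 and 162 in members and 11.9, 39.2 and 36.0 in Hp-negative stroma (log2 fold change 2.31 ± 0.18, edgeR adjusted p = 0.0176, and 0.0775 without sarcoma 2). It was found in 53.3%, 95.8% and 77.6% of members and in 13.6%, 33.3% and 31.0% of Hp-negative stroma. Of 24 acute-phase and antimicrobial genes listed, 13 were tested, 4 were called higher (Saa3, Lcn2, Cp and the interleukin-1 receptor gene Il1r1) and 0 lower, and their median log2 fold change was 1.40 against −0.02 over all genes. Lbp (0.95, adjusted p = 0.273), Serpina3n (1.63, 0.119) and Steap4 (1.60, 0.0646) missed the threshold.

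Chemokine genes formed the next group. Cxcl5, whose product draws neutrophils, was counted at 213, 429 and 549 CPM in members and 19.2, 47.7 and 47.4 in Hp-negative stroma. Members lay above Hp-negative stroma in each library, without overlap, and the adjusted p was the smallest of the comparison (log2 fold change 3.48 ± 0.13, SE, edgeR adjusted p = 0.00102). In sarcoma 1, however, 1 member held 94 of 162 Cxcl5 UMIs (58.0%), without which the level was 92.4, and 1 Hp-negative cell held 66 of the 76 UMIs on its side. In sarcoma 2, 1 Hp-negative cell held 70 of 101. Without sarcoma 1 the adjusted p was 0.00824. Cxcl12, the ligand that retains CXCR4-bearing cells, lay at 1263, 2496 and 2618 in members and 208, 381 and 1064 in Hp-negative stroma, with no overlap (2.28 ± 0.29, edgeR adjusted p = 0.0370). It was found in 96.7%, 100% and 99.6% of members and in 52.4%, 70.4% and 92.7% of Hp-negative stroma. Its call was lost without sarcoma 1 (edgeR adjusted p = 0.123) or sarcoma 2 (0.126). The eotaxin gene Ccl11 lay at 351, 340 and 149 against 132, 148 and 77.5 (1.26 ± 0.13), Cxcl14 at 1275, 5500 and 3300 against 590, 2493 and 2103 (1.05 ± 0.12), and the decoy receptor gene Ackr3, which takes up Cxcl12, rose by 0.81. Csf3, which encodes the neutrophil growth factor G-CSF, was higher at low levels, 10.5, 9.76 and 56.6 against 1.01, 0.472 and 8.03 (3.05 ± 0.26, edgeR adjusted p = 0.0176). These rest on 8, 20 and 405 Csf3 UMIs, found in 2 of 30, 3 of 71 and 50 of 254 members. A single member gave 62.5%, 45% and 14.3% of them in sarcomas 1, 2 and 3. On the Hp-negative side of sarcoma 3, 1 cell held 119 Csf3 UMIs. The call was lost without sarcoma 3 (edgeR adjusted p = 0.0650).

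Of 22 genes of the inflammatory tumour fibroblast list, all were tested, 3 were called higher (Cxcl5, Cxcl12 and Ccl11) and 0 lower, with a median log2 fold change of 0.49. Il6, the gene of the main inducer of the hepatic response, was counted at 137, 83.9 and 154 in members and 56.8, 39.2 and 95.7 in Hp-negative stroma and missed the threshold (1.07 ± 0.15, edgeR adjusted p = 0.0505). Cxcl1 (0.99, adjusted p = 0.129) and Ccl2 (0.14, adjusted p = 0.935) also missed it, and Ccl2 lay at 1000, 426 and 290 in members against 1258, 514 and 171. Of 16 tested NF-kB target genes only Sod2, the mitochondrial superoxide dismutase gene, was called, at 252, 496 and 601 in members against 142, 159 and 185 (1.49 ± 0.19, edgeR adjusted p = 0.0370). Of 14 tested genes of interleukin-6 and STAT3 signalling 0 were called in either direction by edgeR, where 0.588% of all genes tested were. Their median was 0.41, and 7 of the 14 lay higher in members in all 3 libraries and 0 lower. Of the 16 NF-kB target genes, 8 lay higher in all 3 libraries and 0 lower. Of all genes tested, 11.3% lay higher and 28.7% lower in all 3.

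**Figure D3:**
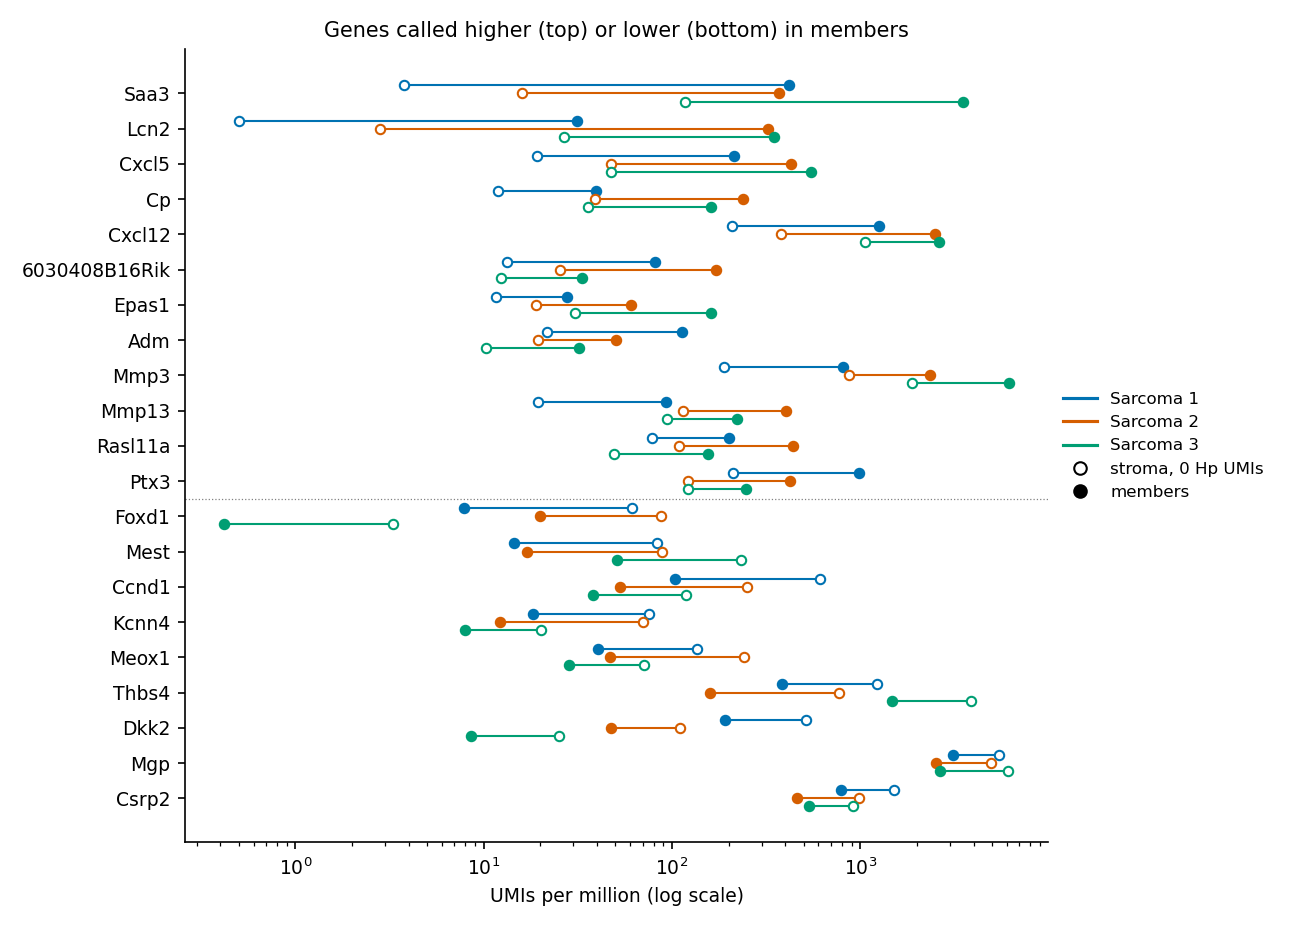
Level in CPM (horizontal axis, log scale) of the 12 genes called higher and the 9 called lower in members that the naming rule took, with open circles for Hp-negative stroma, filled circles for members and colours for the library. Each of the 12 lies to the right in members in all 3 libraries, and each of the 9 to the left.

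The matrix metalloproteinase genes Mmp3 and Mmp13 were called higher. Mmp3, the stromelysin that cleaves proteoglycans and activates other proteases, was counted at 814, 2361 and 6181 CPM in members and 189, 867 and 1877 in Hp-negative stroma (log2 fold change 1.83 ± 0.14, SE, edgeR adjusted p = 0.0156). Its levels differ so much between tumours that the groups overlap, although members were higher in each library. The collagenase gene Mmp13 lay at 93.2, 404 and 222 against 19.4, 115 and 94.0 (1.79 ± 0.20, edgeR adjusted p = 0.0272), and lost its call without sarcoma 1 (0.0602) or sarcoma 2 (0.126). It was found in 20%, 31.0% and 22.4% of members and in 8.84%, 22.2% and 12.7% of Hp-negative stroma, so most members lacked an Mmp13 UMI. Of 25 tested proteases and inhibitors these were the only 2 called, and Mmp2 (0.53, adjusted p = 0.323), Mmp14 (0.26, 0.621) and Timp1 (0.39, 0.594) were not.

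Further genes called higher fall under several functions. Ptx3, the soluble pattern receptor pentraxin 3, lay at 986, 421 and 247 in members and 212, 122 and 122 in Hp-negative stroma (log2 fold change 1.75 ± 0.23), the vasodilator gene Adm at 113, 50.2 and 32.1 against 21.7, 19.4 and 10.3 (1.88 ± 0.21), and Rarres2, the gene of the chemoattractant chemerin, at 603, 1226 and 670 against 215, 400 and 265 (1.56 ± 0.11). Epas1, which encodes the hypoxia-induced transcription factor HIF-2α, lay at 27.6, 61.0 and 161 against 11.6, 18.9 and 30.5 (2.02 ± 0.24). It was higher still in cells above the Rgs5 limit, at 221, 355 and 425, and the part of such cells in its rise was not tested. The RANK ligand gene Tnfsf11 rose by 1.47 ± 0.14, the interleukin-13 decoy receptor gene Il13ra2 by 2.57 ± 0.22, the metallothionein genes Mt1 and Mt2, which bind zinc and copper, by 1.20 ± 0.13 and 1.13 ± 0.12, the small GTPase gene Rasl11a by 1.76 ± 0.15 and 6030408B16Rik by 2.26 ± 0.29. The edgeR adjusted p of these 10 genes, from Ptx3 on, lay between 0.0146 (Rarres2) and 0.0404 (Ptx3).

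Of the 18 complement genes listed, 11 were tested and 1 was called higher, though all 11 fitted changes were above 0. Cfb, factor B of the alternative pathway, was counted at 27.6, 31.7 and 125 in members and 13.9, 12.7 and 65.6 in Hp-negative stroma (log2 fold change 1.12 ± 0.15, edgeR adjusted p = 0.0437). C3, the central complement gene, lay at 911, 1298 and 1346 against 168, 350 and 741 without overlap and missed the threshold (1.80 ± 0.29, adjusted p = 0.0695), as did the C1 inhibitor gene Serping1 (1.13, 0.0524). The median over the 11 was 0.94, and 9 lay higher in members in all 3 libraries, where 11.3% of all genes tested did. Of 19 collagen genes 0 were called (median 0.59), with Col3a1 at 0.95 (adjusted p = 0.0959) and Col1a1 at 0.70 (0.154), and of 19 myofibroblast genes 0 were called (median 0.13). Acta2, the smooth muscle actin of contractile fibroblasts, went opposite ways between tumours, at 484, 101 and 263 in members against 196, 347 and 140 (0.31 ± 0.58, adjusted p = 0.955). Of 13 genes of Pi16 and Dpp4 fibroblasts 1 was called (Ackr3), with Pi16 at 320, 304 and 797 against 365, 499 and 1074 (−0.37, adjusted p = 0.365), and of 14 genes of Col15a1 fibroblasts Cxcl14 and the lipase gene Lpl were called higher and Vwa1 lower. Of 23 interferon-response genes and 20 immediate-early and heat-shock genes, which dissociation can induce, 0 were called, where 0.588% of all genes tested were. Their medians were 0.19 and 0.30. The immediate-early and heat-shock genes summed to 14334, 10297 and 10512 CPM in members against 9537, 8813 and 11190 in Hp-negative stroma. The part of dissociation was not tested.

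**Figure D4:**
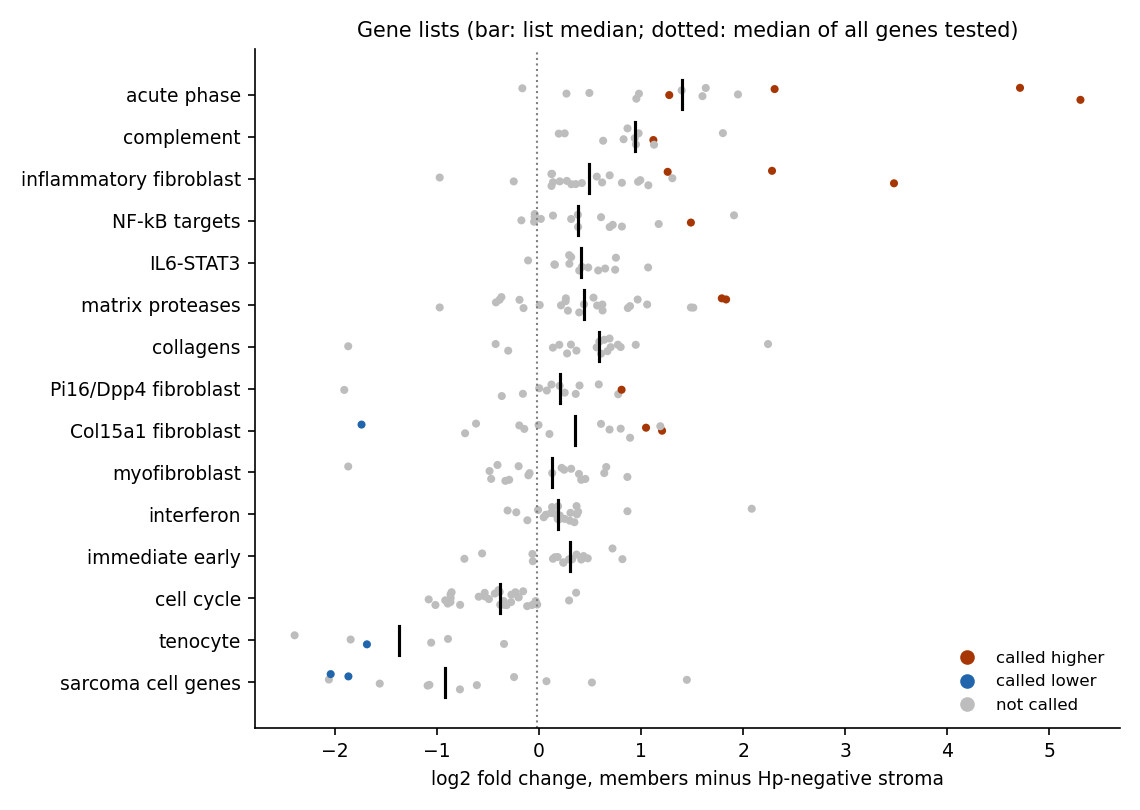
Log2 fold change of members minus Hp-negative stroma (horizontal axis) for the tested genes of 15 lists, 1 point per gene, brown if called higher, blue if called lower and grey if not called, with a bar at each list's median and a dotted line at the median of all genes, −0.02. The acute-phase median is 1.40 and the complement median 0.94, while the tenocyte and sarcoma cell lists lie below 0.

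Among genes lower in members, Mest, an imprinted gene of embryonic mesenchyme, was counted at 14.4, 17.1 and 50.9 CPM in members and 83.0, 88.3 and 232 in Hp-negative stroma (log2 fold change −2.23 ± 0.14, SE, edgeR adjusted p = 0.0117). Cells outside the stroma rule held little Mest, at 11.5, 2.56 and 15.9. Limited to cells with a Smarcb1 UMI, which leaves sarcomas 2 and 3, it fell by 2.39 (adjusted p = 0.000145), and limited to cells without Cdkn2a by 2.65 (0.00232), but without sarcoma 2 its adjusted p was 0.0501. Thbs4, a matricellular gene of tendon, lay at 386, 160 and 1479 against 1229, 775 and 3857 (−1.69 ± 0.17, edgeR adjusted p = 0.0234), and fell by 1.96 and 2.27 in the limited cells (0.00263 and 0.0128). Its call was lost without sarcoma 1 (0.0720) or sarcoma 2 (0.0775). Of 6 tested tenocyte genes it was the only one called, the list's median was −1.37, and the tendon transcription factor gene Scx lay at 0, 0.976 and 15.8 in members against 3.79, 24.5 and 66.2 (adjusted p = 0.0696). Mgp, which encodes an inhibitor of calcification, lay at 3118, 2514 and 2652 in members and 5469, 4930 and 6104 in Hp-negative stroma, with no overlap (−0.91 ± 0.10, edgeR adjusted p = 0.0272). A single member of sarcoma 1 held 61.7% of that library's Mgp UMIs, and Mgp was no longer called when any 1 library was left out (adjusted p 0.0602, 0.126 and 0.0666 without sarcomas 1, 2 and 3). Csrp2, a LIM-domain gene of smooth muscle and fibroblasts, fell by 0.86 ± 0.10 (adjusted p = 0.0295).

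The other 5 lower genes that the naming rule took were highest in the cells outside the stroma rule, except Foxd1 in sarcoma 3. Ccnd1, the cyclin D1 gene, lay at 104, 52.7 and 38.3 in members, 613, 251 and 119 in Hp-negative stroma and 973, 806 and 511 outside (log2 fold change −2.04 ± 0.19, edgeR adjusted p = 0.0211). Limited to cells with a Smarcb1 UMI, which leaves sarcomas 2 and 3, its difference was −0.62 (edgeR adjusted p = 0.108). Limited to cells without Cdkn2a it was −2.19 (0.129). Foxd1, a forkhead transcription factor gene, lay at 7.88, 20 and 0.419 in members, 61.3, 87.3 and 3.28 in Hp-negative stroma and 122, 163 and 2.02 outside (−2.35 ± 0.23), and the WNT antagonist gene Dkk2 at 192, 47.3 and 8.52, 517, 110 and 25.2, and 995, 1129 and 222 (−1.32 ± 0.13). The potassium channel gene Kcnn4 (−1.80 ± 0.24) and the homeobox gene Meox1 (−1.71 ± 0.21) had the same order. With all stroma cells kept, the calls of these 5 genes were already lost when sarcoma 1 was left out. The edgeR adjusted p was then 0.0532 for Ccnd1, 0.0668 for Foxd1, 0.0696 for Dkk2, 0.137 for Kcnn4 and 0.103 for Meox1. Without sarcoma 2 they were lost too (0.0955, 0.0775, 0.0850, 0.149 and 0.126). With a Smarcb1 UMI required, the differences of Foxd1 (−1.26, adjusted p = 0.155) and Kcnn4 (−0.62, 0.672) were not called, and those of Dkk2 (−1.53, 0.0474) and Meox1 (−0.95, 0.0125) were. In cells without Cdkn2a, Dkk2 was not called (−1.40, 0.371), Meox1 was (−1.97, 0.0258), and Foxd1 and Kcnn4 did not pass the low-count filter. With both sides limited to cells with at least 100 UMIs per 10000 over Dcn, Gsn, Col3a1 and Lum, Ccnd1 (−0.53, 0.516), Foxd1 (−1.24, 0.259), Dkk2 (−0.56, 0.322) and Kcnn4 (−0.14) were not called, and Meox1 was (−1.10, 0.00593). Of the 16 genes called lower, 7 of 14 tested were called with a Smarcb1 UMI, 5 of 9 without Cdkn2a and 6 of 14 under the fibroblast limit. Of the 47 called higher, 45 of 47, 37 of 46 and 44 of 47 were. Of 12 sarcoma cell genes tested, Ccnd1 and March11 were called lower, while Spp1, the osteopontin gene, lay at 1663, 17931 and 2350 in members, 1380, 6627 and 455 in Hp-negative stroma and 576, 176 and 66.2 outside (1.45 ± 0.37, adjusted p = 0.204). Of 32 cell-cycle genes 0 were called by edgeR, with a median of −0.38, and 15 lay lower in members in all 3 libraries, where 28.7% of all genes tested did.

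Members differed among themselves. With a limit of at least 3 UMIs, as for Hp, 62.0% of members in sarcoma 2 and 62.2% in sarcoma 3 held at least 1 of Saa3, Lcn2 and Cxcl5, and 9.86% and 14.2% held all 3. In sarcoma 1 the shares were 20% and 0%. In Hp-negative stroma, 2.04%, 7.41% and 9.90% of cells of sarcomas 1, 2 and 3 held at least 1. None of these genes reached that limit in 24, 27 and 96 members of the 3 libraries. A count below the limit does not show that a cell lacks the transcript: with 1 UMI as the limit, the share for Lcn2 in sarcoma 2 was 57.7%, against 46.5% with 3, and that for Saa3 in sarcoma 3 was 53.1%, against 41.7%.

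Levels were then followed over stroma with 0, 1 to 2, 3 to 5 and 6 or more Hp UMIs. Hp set both these classes and the members, and the genes named here were called in the same cells. The levels are therefore a description and not separate support for the calls. Cxcl12 rose at each step in all 3 libraries, from 208 over 771 and 935 to 1500 CPM in sarcoma 1, from 381 over 1042 and 1422 to 2605 in sarcoma 2, and from 1064 over 1768 and 2103 to 2784 in sarcoma 3. Lcn2, Sod2 and 6030408B16Rik also rose at every step in each library. In sarcoma 1, however, Lcn2 lay at 0.505, 2.44 and 6.26 in the classes below 6 Hp UMIs. A floor of 3 counts lies at 0.757, 3.66 and 9.38 there, so the order of these Lcn2 levels is not resolved. Saa3 rose at every step only in sarcoma 3, from 118 to 4390, and was at 0 in the 12 and 9 cells with 3 to 5 Hp UMIs of sarcomas 1 and 2. Cxcl5, Mmp3, Ptx3, Epas1, Adm and Rasl11a likewise rose throughout in only 1 library, and Cp and Mmp13 in 2. Mest fell at each step in sarcomas 1 and 3, to 2.26 and 25.6 in the highest class, and in sarcoma 2 it lay at 126 in the 9 cells with 3 to 5 Hp UMIs and at 5.92 above. The cells with 1 to 2 Hp UMIs, 38, 25 and 270 in the 3 libraries, were left out of both sides of the tests.

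**Figure D5:**
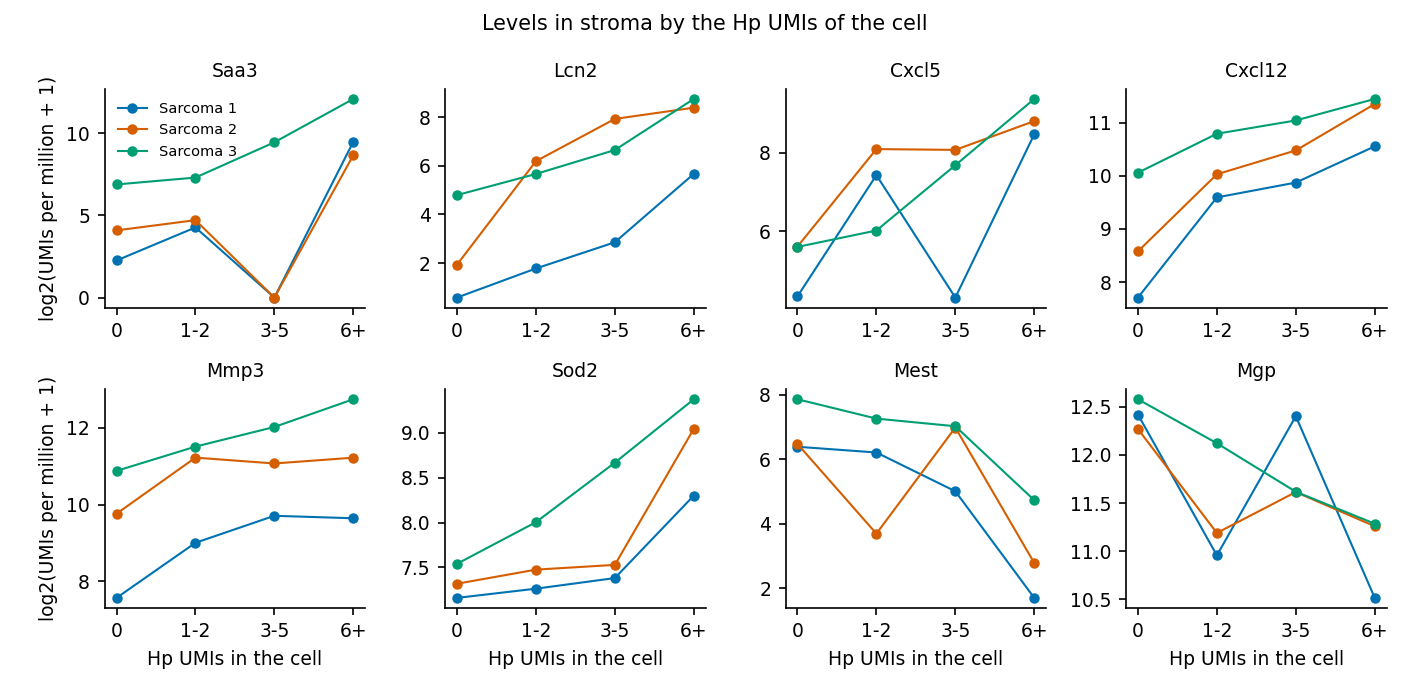
Level as log2 of CPM plus 1 (vertical axis) of 8 genes in stroma grouped by the Hp UMIs of the cell (horizontal axis), 1 line per library. Cxcl12, Lcn2 and Sod2 rise at each step in all 3 libraries, while Mest ends lowest in the class with 6 or more Hp UMIs. The Lcn2 points of sarcoma 1 below 6 Hp UMIs lie under a floor of 3 counts.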

How the data were processed

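The deposited values are raw UMI counts per gene and barcode, 1 matrix for each of 5 libraries, which the authors produced using Cell Ranger 6.0.1, per the file headers. The submitters' processing notes name mm10. The 10x 3′ kit is named in the labels' protocols. The annotation release is not given in the sources used here.

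Cells were selected by the rule given in the report. Doublets were not removed (removal of the highest 6% of Scrublet scores was an alternative). Counts were summed per library and side and tested with edgeR 4.0.16 in R 4.3.3: library as a block, TMM scaling, filterByExpr, quasi-likelihood test, Benjamini-Hochberg adjustment over all genes at 0.05. Both sides of a pair come from 1 library, which is where the pairing comes from. Libraries needed 20 cells on both sides. Levels are counts per 1000000 UMIs (CPM), and shares carry exact Clopper-Pearson intervals at 95%. DESeq2 1.42.0, limma-voom 3.58.1, other scaling, no low-count filter, no block, thinning to 5000 UMIs, other limits on Hp, stroma and mitochondrial counts, and leaving out each library were alternatives. The alternatives on Smarcb1 and Cdkn2a were chosen after seeing the data. Members and gene lists were chosen with earlier results of these data known. Named genes were the 12 largest changes each way among called genes with at least 50 CPM in the higher side and 1 direction in all 3 libraries (9 genes qualified as lower), 2 to 4 members of a list by level, and the rule and driver genes. Others are named where a list count or a called group holds them and were chosen after their values were seen.

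Checked on counts simulated for 10496 genes, edgeR found 61.5% of 65 log2 changes of 1, 97.0% of 66 changes of 2 and 100% of 65 changes of 4. It made 23 false calls among 10300 unchanged genes. As a share of all edgeR calls on these simulated counts, the false calls exceeded the limit set by the adjusted p threshold. The planted number and sizes of changes need not match these data, so the rates may differ for the real calls. Gene positions are from GENCODE, matched by identifier for 27645 of 28001 features. Python 3.11.15, numpy 2.4.6, scipy 1.17.1 and scanpy 1.11.5 were used.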

Additional observations from a re-analysis of the deposited data

Results flagged for a closer look

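The share of kept cells that were stroma was 25.6% in sarcoma 3, far from the 2.89%, 2.16% and 2.49% of sarcomas 1, 2 and 4, and its gap to the nearest library exceeded Dixon's limit for 4 samples. Hp over all kept cells was 119.6 CPM in sarcoma 3, against 6.84, 12.9 and 1.06 in sarcomas 1, 2 and 4, and was singled out in the same way. In all, 7 quantities were examined over the 4 sarcomas and 2 were singled out, where chance flags about 1 in 20. The share of stroma and the pooled Hp level come from the same library and are not separate evidence. The share of members among stroma was not singled out (14.0%, 40.1%, 14.3% and 0%).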

How the results depend on the processing

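Over 19 alternatives, the 63 called genes gave 1156 fitted differences: 776 stayed past the threshold, 380 kept the direction only and 0 turned. The count of called genes (higher and lower in brackets) was 214 with DESeq2 (143, 71), 148 with limma-voom (113, 35), 763 with no low-count filter (397, 366) and 0 with no replicate block (0, 0; 372 at an unadjusted p under 0.05), the fit that ignores the pairing of both sides within a library. Leaving out each sarcoma gave 8 to 105 (5 to 58 and 3 to 47). Requiring 50 cells on both sides leaves out sarcoma 1 as well and gave 18 (15, 3). The count was 119 with cells thinned and the rule set on levels (81, 38), 36 with at least 2 Hp UMIs (26, 10), 90 with a stroma sum of at least 6 UMIs (73, 17), 135 with at least 100 UMIs per 10000 over Dcn, Gsn, Col3a1 and Lum (98, 37), 35 without the highest 6% of Scrublet scores (25, 10) and 181 with a Smarcb1 UMI required (111, 70). Counts stayed within 1.5 times with library size scaling (62), thinned cells (83), at least 5 Hp UMIs (79), at most 5% mitochondrial UMIs (67) and 0 Cdkn2a UMIs (75). The share of members moved to 19.5% and 9.30% in sarcoma 1, and to 17.7% and 11.6% in sarcoma 3, with at least 2 and at least 5 Hp UMIs, and to 17.4% in sarcoma 3 with a Smarcb1 UMI required. The causes were not tested. Members came from 3 libraries, 30 of them from sarcoma 1.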
